A study of Ovis aries with 6 samples.

Results

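The growth hormone and insulin-like growth factor (IGF) axis was followed here through 10 genes in skin. The sheep were of the breeds Super Merino, written SM, and Small Tail Han, written STH. The genes are the ligands *IGF1* and *IGF2*, the receptors *GHR*, *IGF1R* and *IGF2R*, and the binding proteins *IGFBP2*, *IGFBP3*, *IGFBP4*, *IGFBP5* and *IGFBP6*. They were taken by symbol, all 10 were found among the 28394 genes of the files, and each had 1 entry with its own counts. SM was bred for fine wool and carries Australian Merino ancestry, and STH is a local Chinese breed whose fleece is coarse. Total RNA came from skin cut behind the shoulder blade of 3 SM ewes (labelled 128, 30034 and 30126) and 3 STH ewes (labelled XW3, XW5 and XW8), kept on the same farm and feed and sampled in October, when wool follicles are expected to be growing. The sample labels give an age of 9 months for all 6 ewes, whereas the methods text gives a younger age. No animal was treated, and each was sequenced as 1 polyA library. The spread within a breed is therefore that between individual ewes together with that of sampling and library preparation, which cannot be told apart.

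Growth hormone from the pituitary acts through its receptor, GHR, which signals through the kinase JAK2 and the transcription factor STAT5 and drives production of IGF1 in the liver and, locally, in other tissues. IGF1 and IGF2 act through the tyrosine kinase receptor IGF1R, which feeds the PI3K-AKT and RAS-MAPK branches, while IGF2R binds IGF2 and delivers it for breakdown. A family of binding proteins with high affinity holds the IGFs and releases them when proteases cut the binding protein. In skin, IGF1 made in the dermis and the dermal papilla is known to keep hair follicles in the growing phase.

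Total counts of the 6 libraries ranged from 28870583 to 44645091, at which 3 counts correspond to 0.0672 to 0.104 CPM (counts scaled to the size of the library). The counts of the 10 genes ranged from 349 (*IGF1* in SM 30126) to 44268 (*IGFBP5* in STH XW5), so that each was far above this floor in every sheep. Values by sheep below are CPM after TMM normalization, and every log2 fold change is SM over STH, with its standard error (SE). A gene passed when the adjusted p of edgeR's quasi-likelihood test was under 0.05 and the breeds differed by more than 1.5-fold in either direction. Keratinocyte and fibroblast markers were abundant in all sheep (*KRT5* at 4670 to 8419 CPM and *COL1A1* at 5004 to 8048 CPM). Of the skeletal muscle markers, *MYL1* had no count in any sheep, *CKM* lay between 24.6 and 37.5 CPM and *TNNT1* between 2.55 and 6.82 CPM. *ACTA1* was lower in all SM sheep, at 0.562 to 1.78 CPM against 2.02 to 8.75 CPM in STH. Its log2 fold change was -2.18 (SE 0.58, adjusted p = 0.240 in edgeR's quasi-likelihood test). *ACTA1* passed both thresholds in DESeq2 (adjusted p = 0.00857), in edgeR's likelihood ratio test (adjusted p = 0.0238) and in edgeR's exact test (adjusted p = 0.0273). The paper also lists it as higher in STH. Of the liver markers, *ALB* lay between 0.586 and 5.32 CPM, and *SERPINA1* at 36.9 to 103 CPM in SM and 113 to 155 CPM in STH. The calls depended most on SM 128, since the number of genes that passed went from 0 with all sheep to 1175 without it and was at most 3 without any other sheep. By the chi-square of their counts per gene, SM 128 and SM 30034 were the closest SM sheep (57.8), and SM 30126 was farther from both (153 and 101).

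Levels of different genes were compared per exon length, as the deposited RPKM (reads scaled to the exon length of the gene and to the size of the library). *IGFBP5*, a binding protein that adheres to the extracellular matrix, had the highest level of the 10 genes, with 107 ± 9.28 RPKM (SD, n = 6), and it exceeded 97.2% of the 15320 genes tested. *IGFBP4*, a binding protein that holds IGFs away from their receptor, came next with 43.4 ± 13.8 RPKM. It was followed by *IGFBP3*, the main carrier of IGFs in blood, with 33.6 ± 5.16 RPKM. *IGFBP5* exceeded *IGFBP4* in 6 of 6 sheep, while *IGFBP4* exceeded *IGFBP3* in 4 of 6 and lay below it in STH XW5 and STH XW8.

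*IGFBP2* (18.2 ± 2.83 RPKM), *IGFBP6* (16.7 ± 1.65 RPKM), which binds IGF2 more tightly than IGF1, and *IGF1R* (15.1 ± 1.83 RPKM) lay close together, and their order was not the same in all sheep. *IGF2* had 12.7 ± 2.34 RPKM and lay below *IGF1R* in all 6 sheep. *IGF2R* (6.54 ± 1.33 RPKM) and *GHR* (5.34 ± 1.85 RPKM) exchanged places between sheep, with *IGF2R* above *GHR* in 4 of 6. *IGF1* was lowest in every sheep, with 2.71 ± 1.14 RPKM, above 39.3% of the tested genes. Of the 9 neighbouring pairs in this order, 5 were ordered alike in all sheep.

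**Figure D1:**
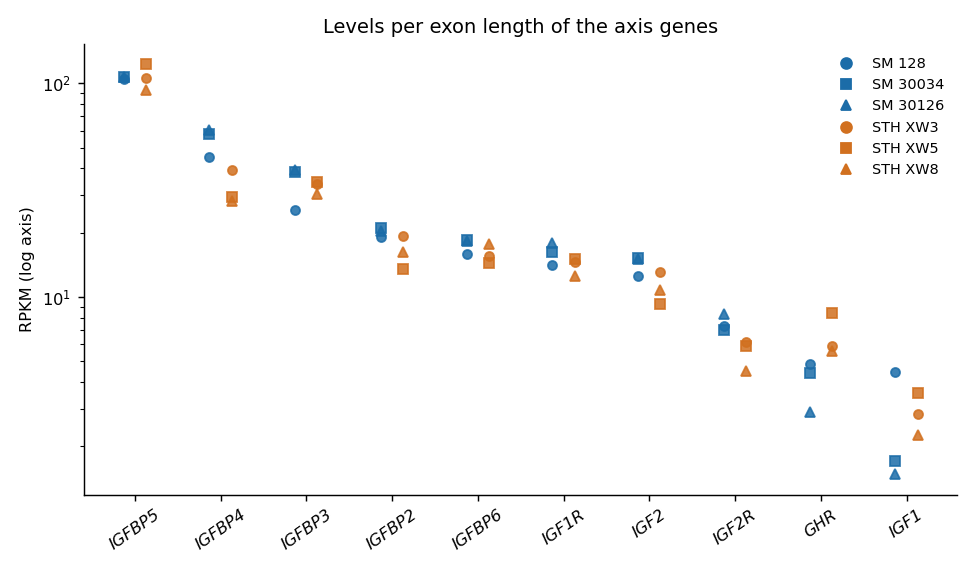
Level of each of the 10 genes in each sheep, in RPKM on a logarithmic axis, with genes ordered by their mean over the 6 sheep. SM sheep are blue and STH sheep orange, each symbol is 1 sheep, and the genes run from IGFBP5 (107 RPKM on average) down to IGF1 (2.71 RPKM).

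Among the ligands, the breeds overlapped for both genes and neither passed the test, and *IGF1* differed widely between the SM ewes themselves. *IGF1* (gene ID 443318, Oar_v4.0 chromosome 3, 171037883 to 171113228, minus strand) had 27.6, 10.1 and 8.89 CPM in SM 128, SM 30034 and SM 30126, and 17.3, 22.5 and 14.2 CPM in STH XW3, STH XW5 and STH XW8. SM 128 was thus the highest of the 6 sheep, the other SM sheep were the lowest, and the 3 STH sheep lay between them. The means were 15.5 ± 10.5 CPM in SM and 18.0 ± 4.21 CPM in STH (SD, n = 3 each). For *IGF1* the log2 fold change was -0.22 (SE 0.41, 95% CI -1.16 to 0.72), with an adjusted p of 0.774 in edgeR's quasi-likelihood test. Without SM 128 it was -0.92 and *IGF1* passed both thresholds (adjusted p = 0.0487, edgeR), whereas without SM 30034 it was 0.02 and without SM 30126 it was 0.08. The call for *IGF1* therefore rested on whether SM 128 was included.

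*IGF2* (gene ID 443325, chromosome 21, 48548749 to 48573206, plus strand), the growth factor best known from fetal growth, had 48.7, 56.7 and 56.3 CPM in the SM sheep and 50.03, 36.7 and 42.7 CPM in the STH sheep, in the order of the sheep above. The lowest SM sheep, again SM 128, was just under the highest STH sheep, so that the breeds overlapped by this single pair. The means were 53.9 ± 4.53 CPM in SM and 43.2 ± 6.65 CPM in STH (SD, n = 3 each). For *IGF2* the log2 fold change was 0.32 (SE 0.16, 95% CI -0.04 to 0.68), and the adjusted p was 0.306 in edgeR. It kept its sign when any sheep was left out, between 0.22 and 0.44.

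In every sheep *IGF2* was the more abundant of the ligand messages per exon length. The ratio of *IGF2* to *IGF1* in RPKM was 2.81, 8.94 and 10.1 in the SM sheep against 4.61, 2.61 and 4.81 in the STH sheep. SM 30034 and SM 30126 were above all STH sheep in this ratio, and SM 128 was within the STH range. No growth hormone count (gene *GH*) was found in any sheep, where 3 counts would correspond to 0.104 CPM in the shallowest library. In blood, the paper found no significant difference between the breeds in the levels of growth hormone or IGF1. The insulin gene was not analysed here.

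Of the receptors, *GHR* was lower and *IGF2R* higher in all SM sheep than in all STH sheep, and neither passed the test after adjustment. *GHR* (gene ID 443333, chromosome 16, 31832298 to 32129331, minus strand), the cytokine-type receptor of growth hormone, had 35.6, 30.7 and 20.4 CPM in the SM sheep and 42.3, 63.0 and 41.4 CPM in the STH sheep. The highest SM sheep lay below the lowest STH sheep, and STH XW5 lay well above the others. The means were 28.9 ± 7.73 CPM in SM and 48.9 ± 12.2 CPM in STH (SD, n = 3 each), a 1.69-fold higher level in STH in the fit. For *GHR* the log2 fold change was -0.76 (SE 0.25, 95% CI -1.32 to -0.20), with an unadjusted p of 0.0133 and an adjusted p of 0.247 in edgeR's quasi-likelihood test. DESeq2 gave an adjusted p of 0.0860 for *GHR*. An exact two-sided permutation test of the log2 CPM of *GHR* gave p = 0.1, the smallest value that 3 against 3 sheep allow. The log2 fold change lay between -0.94 and -0.54 when each sheep was left out, and it was -0.94 (adjusted p = 0.0533, edgeR) without SM 128.

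*IGF2R* (gene ID 443500, chromosome 8, 82792178 to 82878871, plus strand), also the cation-independent mannose 6-phosphate receptor that carries enzymes to lysosomes, had 59.7, 54.95 and 66.0 CPM in the SM sheep and 49.3, 49.2 and 37.2 CPM in the STH sheep. All SM sheep were above all STH sheep, and STH XW8 was the lowest. The means were 60.2 ± 5.52 CPM in SM and 45.2 ± 6.95 CPM in STH (SD, n = 3 each), a 1.33-fold higher level in SM in the fit. For *IGF2R* the log2 fold change was 0.41 (SE 0.16, 95% CI 0.05 to 0.78), with an unadjusted p of 0.0313 and an adjusted p of 0.260 in edgeR. DESeq2 gave an adjusted p of 0.192.

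*IGF1R* (gene ID 443515, chromosome 18, 6916510 to 7211789, plus strand), the receptor through which both IGFs signal, had 85.7, 94.7 and 105 CPM in the SM sheep and 87.2, 93.3 and 77.5 CPM in the STH sheep. The breeds overlapped, with SM 128 below 2 of the STH sheep. For *IGF1R* the log2 fold change was 0.14 (SE 0.14, 95% CI -0.18 to 0.47), with an adjusted p of 0.561 in edgeR. This interval lies within the 1.5-fold threshold in either direction. In RPKM, *IGF1R* exceeded *IGF2R* by 1.93, 2.32 and 2.14 times in the SM sheep, and by 2.38, 2.55 and 2.81 times in the STH sheep, so that each STH sheep had a larger ratio than any SM sheep.

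**Figure D2:**
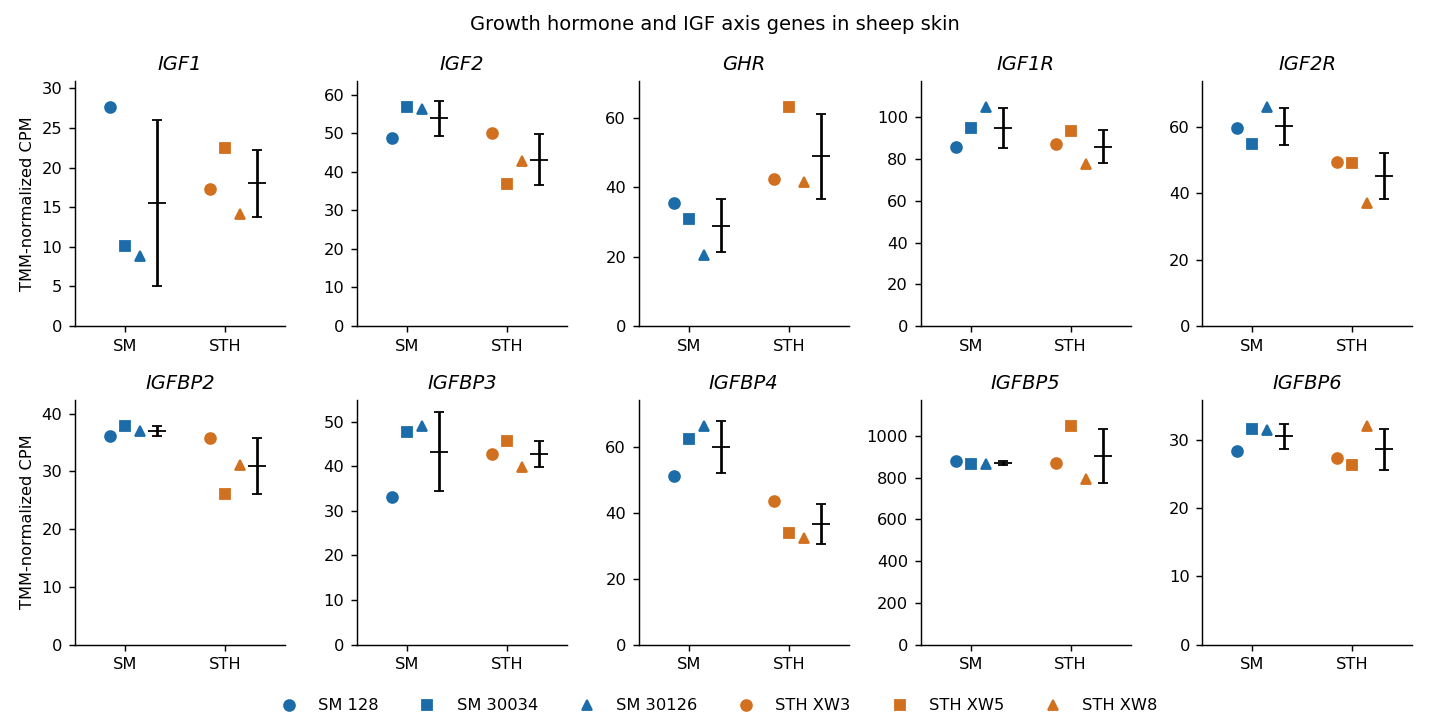
Level of each of the 10 genes in each sheep, in TMM-normalized CPM on axes that start at 0 and differ between genes. Each symbol is 1 sheep and the bars give the mean and SD of the 3 sheep of a breed. The breeds are separate for GHR, IGF2R, IGFBP2 and IGFBP4, and SM 128 stands far above the other SM sheep for IGF1 at 27.6 CPM.

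The binding proteins differed from each other in how the breeds compared. *IGFBP4* was 1.64-fold higher in SM, *IGFBP2* was slightly higher in all SM sheep, and *IGFBP3*, *IGFBP5* and *IGFBP6* overlapped between the breeds. *IGFBP4* (gene ID 443470, chromosome 11, 40200887 to 40211101, plus strand) had 51.0, 62.4 and 66.3 CPM in the SM sheep and 43.5, 33.9 and 32.2 CPM in the STH sheep. The lowest SM sheep, SM 128, was above the highest STH sheep, STH XW3, and these were also the closest sheep of the opposite breeds. The means were 59.9 ± 7.92 CPM in SM and 36.5 ± 6.12 CPM in STH (SD, n = 3 each).

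For *IGFBP4* the log2 fold change was 0.71 (SE 0.17, 95% CI 0.32 to 1.11), with an unadjusted p of 0.0028 in edgeR's quasi-likelihood test. After adjustment over all genes this test gave a p of 0.229 for *IGFBP4*, which did not pass. *IGFBP4* passed both thresholds in DESeq2 (adjusted p = 0.0219), in edgeR's likelihood ratio test (adjusted p = 0.0310) and in edgeR's exact test (adjusted p = 0.0329), and did not in limma-voom (adjusted p = 0.185). The call thus depended on the test, while the log2 fold change lay between 0.57 and 0.76 over all alternatives other than leaving out a sheep. When each sheep was left out it lay between 0.63 and 0.86, and *IGFBP4* passed in the quasi-likelihood test only without SM 128 (log2 fold change 0.82, adjusted p = 0.0300, edgeR). An exact two-sided permutation test on the log2 CPM of *IGFBP4* gave p = 0.1, again the smallest value possible.

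*IGFBP2* (gene ID 443469, chromosome 2, 217602923 to 217632202, plus strand), a binding protein that also attaches to integrins on the cell surface, had 36.0, 37.9 and 37.0 CPM in the SM sheep and 35.7, 26.0 and 31.1 CPM in the STH sheep. All SM sheep were above all STH sheep, but SM 128 exceeded STH XW3 only narrowly. In the deposited RPKM, SM 128 (19.1) lay below STH XW3 (19.3), so that on that scale the breeds overlapped for *IGFBP2*. For *IGFBP2* the log2 fold change was 0.26 (SE 0.16, 95% CI -0.10 to 0.61), with an adjusted p of 0.370 in edgeR. *IGFBP5* (gene ID 443133, chromosome 2, 217641544 to 217664673, minus strand) lies 9342 bases from *IGFBP2* on the opposite strand, with the ends of the genes facing each other. It had 879, 864 and 866 CPM in the SM sheep and 869, 1049 and 795 CPM in the STH sheep. The SM sheep were nearly alike and lay within the STH range. For *IGFBP5* the log2 fold change was -0.06 (SE 0.15, 95% CI -0.41 to 0.29), with an adjusted p of 0.845 in edgeR.

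*IGFBP3* (gene ID 100286737, chromosome 4, 76135031 to 76140331, plus strand) had 33.0, 47.6 and 49.1 CPM in the SM sheep and 42.8, 45.7 and 39.9 CPM in the STH sheep. SM 128 was the lowest of all sheep for *IGFBP3*, and the other SM sheep were the highest. The log2 fold change was 0.02 (SE 0.18, 95% CI -0.39 to 0.42), with an adjusted p of 0.964 in edgeR. *IGFBP1*, a binding protein made mainly in the liver, lies 9624 bases from *IGFBP3* and was low, at 0.265 to 4.10 CPM. *IGFBP6* (gene ID 100187551, chromosome 3, 133050006 to 133060186, minus strand) had 28.4, 31.7 and 31.5 CPM in the SM sheep and 27.4, 26.4 and 32.1 CPM in the STH sheep, with overlapping breeds. Its log2 fold change was 0.09 (SE 0.15, 95% CI -0.24 to 0.43), with an adjusted p of 0.721 in edgeR. The start of *IGFBP6* overlaps *SPRYD3* on the opposite strand (133060113 to 133073937). Whether the counting used strand is not given in the sources used here, and reads in the shared stretch could belong to either gene.

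As a share of the summed RPKM of the 5 binding proteins, *IGFBP5* made up between 43.5% and 57.1% in the 6 sheep. The share of *IGFBP4* was 21.5%, 23.7% and 24.7% in the SM sheep against 18.4%, 13.7% and 15.1% in the STH sheep, which gives means of 23.3% ± 1.68 and 15.7% ± 2.41 (SD, n = 3 each). Every SM sheep thus had a larger *IGFBP4* share than any STH sheep. The summed RPKM itself was 210, 243 and 245 in SM and 213, 214 and 186 in STH, with SM 128 within the STH range.

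**Figure D3:**
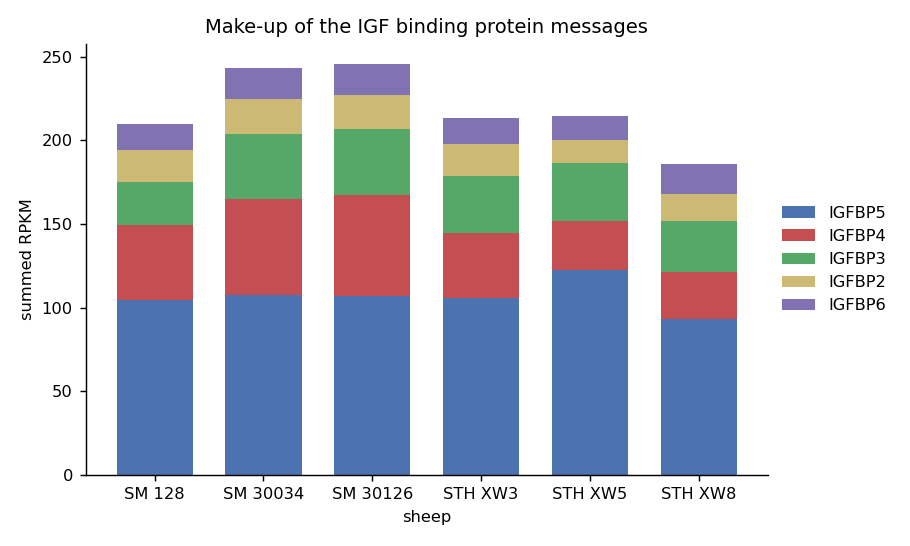
Summed RPKM of IGFBP2 to IGFBP6 in each sheep, with 1 stacked bar per sheep and 1 colour per gene. IGFBP5 takes the largest piece of every bar, and the IGFBP4 piece is 45.1 to 60.7 RPKM in the SM sheep and 28.1 to 39.3 RPKM in the STH sheep.

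Counted over the axis, 0 of the 10 genes passed both thresholds in the quasi-likelihood test, as did 0% of the 15320 genes tested (0 genes). The paper, with EdgeR and the same thresholds, did report genes that differ between the breeds, most of them higher in STH. At an unadjusted p under 0.05, 2 genes were higher in SM (*IGFBP4* and *IGF2R*), beside 7.21% of all genes tested, and 1 was higher in STH (*GHR*), beside 10.8%. In all, 3 of 10 genes were under this level, compared with 18% of all genes (2762 genes). In DESeq2, 1 of 10 genes passed (*IGFBP4*), beside 2.87% of all genes (439 genes; 1.02% higher in SM and 1.85% in STH). *IGFBP4* was likewise the 1 gene of 10 in the likelihood ratio test, beside 2.3% of all genes (0.868% higher in SM and 1.43% in STH), and in the exact test, beside 2.15% (0.836% and 1.31%). SM lay above STH without overlap for 3 genes (*IGFBP4*, *IGF2R* and *IGFBP2*), beside 12.3% of all genes, and STH above SM for 1 (*GHR*), beside 13.3%. That makes 4 of 10 without overlap, beside 25.6%, and *IGFBP2* is among them in CPM but not in RPKM. The median log2 fold change of the 10 genes was 0.12 and that of all genes 0.02, and 7 of the 10 were above 0 beside 51.4% of all genes. With 10 genes these shares are a description, and 1 gene more or less moves them by 10 percentage points. Without SM 128, 2 of the 10 passed in the quasi-likelihood test (*IGFBP4* higher in SM and *IGF1* higher in STH), beside 7.73% of all genes (1.34% higher in SM and 6.39% in STH).

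**Figure D4:**
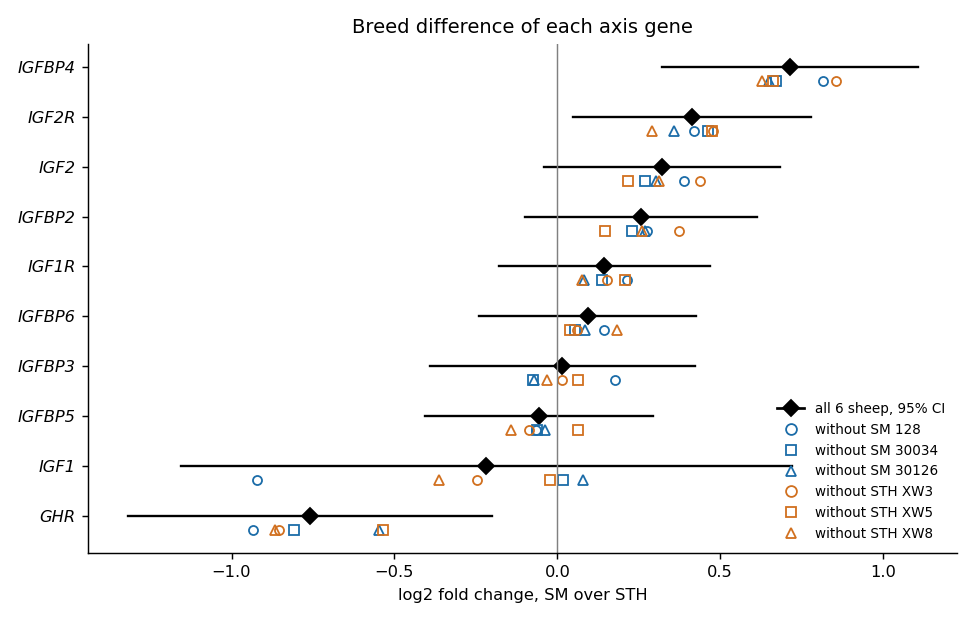
Log2 fold change (SM over STH) of each of the 10 genes. Diamonds and lines give the value and 95% confidence interval with all 6 sheep, and open symbols the value when the named sheep was left out. The intervals of IGFBP4, IGF2R and GHR leave out 0, and the IGF1 value moves from -0.22 to -0.92 without SM 128.

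The rest of the pathway was covered by a list of 74 genes chosen by function, of which 70 were analysed and 64 were tested. None of the 64 passed both thresholds in the quasi-likelihood test, and 0 passed in DESeq2, which gave *PAPPA2* no adjusted p, in the likelihood ratio test and in the exact test, beside 2.87%, 2.3% and 2.15% of all genes. The breeds did not overlap for 15 of the 64, beside 25.6% of all genes. Of these 15, SM lay above for 9 and STH for 6, beside 12.3% and 13.3% of all genes. At an unadjusted p under 0.05, 2 were higher in SM and 5 higher in STH, beside 7.21% and 10.8% of all genes, and the median log2 fold change was 0.07. These counts depended on the scaling of the libraries. With upper quartile normalization 6 were higher in SM and 5 in STH, and with the trend on exon length removed 10 and 4. Without SM 128 they were 9 and 10. Over all genes the split was 1104 higher in SM and 1658 higher in STH in the main test, 1437 and 1402 with upper quartile normalization, and 1590 and 1428 with the length trend removed. Without SM 128 the split over all genes was 1932 and 2677, of 15203 genes tested.

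Next to the receptor, *JAK2*, the kinase bound to GHR, had 52.3, 30.9 and 21.8 CPM in the SM sheep and 55.5, 84.5 and 62.5 CPM in the STH sheep. As for *GHR*, the 3 SM sheep were the lowest and STH XW5 the highest. For *JAK2* the log2 fold change was -0.95 (SE 0.31), with an adjusted p of 0.247 in edgeR, and it was -1.36 without SM 128. Of the 10 genes of growth hormone receptor signalling, all tested, *JAK2* was the 1 gene under an unadjusted p of 0.05, beside 18% of all genes tested. *STAT5B*, which carries the signal to the nucleus, had a log2 fold change of -0.05 (SE 0.15, adjusted p = 0.862 in edgeR). *SOCS2*, a STAT5 target that restrains GHR signalling, had 22.7, 35.3 and 37.8 CPM in the SM sheep and 25.7, 24.1 and 21.1 CPM in the STH sheep. SM 128 lay among the STH sheep for *SOCS2*, and the log2 fold change was 0.43 (SE 0.21, adjusted p = 0.296 in edgeR). *PTPN1*, a phosphatase that acts on JAK2 and the insulin receptor, was at 78.0 to 93.8 CPM in SM and 67.5 to 73.3 CPM in STH, with a log2 fold change of 0.29 (SE 0.13, adjusted p = 0.285 in edgeR).

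Among the insulin receptor and the receptor adaptors, 12 were listed and 10 tested. The log2 fold change was 0.01 for *INSR*, the insulin receptor (SE 0.14, adjusted p = 0.958 in edgeR), and -0.16 for *IRS1*, an adaptor of both IGF1R and the insulin receptor (SE 0.14, adjusted p = 0.532). *SOS1*, the exchange factor that activates RAS, was at 42.6 to 61.5 CPM in SM and 67.6 to 80.4 CPM in STH (log2 fold change -0.52, SE 0.17, adjusted p = 0.247 in edgeR). *SHC1*, an adaptor upstream of SOS1, was at 98.6 to 127 CPM in SM and 82.3 to 93.3 CPM in STH (log2 fold change 0.32, SE 0.15, adjusted p = 0.285 in edgeR). The breeds did not overlap for *SOS1* and *SHC1*, in opposite directions.

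Of the 22 genes of the PI3K-AKT branch, 2 were higher in STH and 1 in SM at an unadjusted p under 0.05, beside 10.8% and 7.21% of all genes tested. *PIK3CA*, a catalytic subunit of PI3K, had 38.1, 16.9 and 14.0 CPM in the SM sheep and 43.6, 64.5 and 42.0 CPM in the STH sheep. The SM sheep had the same order from high to low (SM 128, SM 30034, SM 30126) as for *GHR* and *JAK2*, and STH XW5 was again the highest. *IGF1* had this order of SM sheep as well. By the paper's mapping statistics, the intronic share of the unique fragments also fell in this order over the SM libraries. Over all libraries this share was highest in SM 128, and SM 30034 and SM 30126 lay below every STH library. The part of this library property in the values of *GHR*, *JAK2*, *PIK3CA* and *IGF1* was not tested. For *PIK3CA* the log2 fold change was -1.13 (SE 0.37), with an adjusted p of 0.247 in edgeR, and it was -1.70 without SM 128. *EIF4EBP1*, a repressor of translation that mTOR holds in check, had 20.6, 24.0 and 31.1 CPM in the SM sheep and 18.0, 14.3 and 18.1 CPM in the STH sheep. The breeds did not overlap, and for *EIF4EBP1* the log2 fold change was 0.59 (SE 0.20), with an adjusted p of 0.247 in edgeR. The other gene under that level, named after its values were seen, was *RPS6KB1*, a ribosomal S6 kinase (log2 fold change -0.64, SE 0.25, adjusted p = 0.256 in edgeR).

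Beside 18% of all genes tested, 1 of 9 genes of the RAS-MAPK branch was under an unadjusted p of 0.05. This was *BRAF*, the kinase that RAS activates, at 115 to 224 CPM in SM and 217 to 330 CPM in STH (log2 fold change -0.69, SE 0.27, adjusted p = 0.260 in edgeR), and SM 128 lay within the STH range. *ELK1*, a transcription factor at the end of the branch, had 24.4, 27.3 and 33.8 CPM in the SM sheep and 21.6, 21.7 and 23.8 CPM in the STH sheep. The breeds did not overlap for *ELK1*, and the log2 fold change was 0.35 (SE 0.16, adjusted p = 0.293 in edgeR).

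The proteases that cut the binding proteins, together with the protease inhibitors *STC1* and *STC2*, were the last large group, with 7 of 8 tested. *PAPPA*, which cuts IGFBP4, had 14.0, 9.39 and 6.42 CPM in the SM sheep and 8.59, 11.8 and 12.1 CPM in the STH sheep. The breeds overlapped, and the log2 fold change of *PAPPA* was -0.13 (SE 0.29, adjusted p = 0.813 in edgeR). *PAPPA2*, which cuts IGFBP3 and IGFBP5, had 0.595, 6.91 and 0.357 CPM in the SM sheep and 9.01, 11.2 and 9.86 CPM in the STH sheep. All STH sheep were above all SM sheep for *PAPPA2*, but SM 30034 lay far above the other SM sheep. The log2 fold change was -1.91 (SE 0.89, adjusted p = 0.288 in edgeR), and without SM 30034 it was -4.41 and *PAPPA2* passed (adjusted p = 0.0222). *ADAM12*, another protease that cuts IGFBP3 and IGFBP5, was at 55.4 to 68.3 CPM in SM and 43.9 to 52.4 CPM in STH (log2 fold change 0.36, SE 0.15, adjusted p = 0.262 in edgeR).

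The smaller groups held few measured genes. *IGFBP1* had a log2 fold change of 1.62 (SE 0.84, adjusted p = 0.317 in edgeR) and *ESM1*, a proteoglycan of endothelium, 0.59 (SE 0.57, adjusted p = 0.552). *IGFALS*, the third component of the IGF complex in blood, was at 5.07 to 8.94 CPM in SM and 3.55 to 12.5 CPM in STH. Of the proteins that bind *IGF2* messenger RNA, *IGF2BP2* had a log2 fold change of -0.05 (SE 0.25, adjusted p = 0.912 in edgeR) and *IGF2BP3* -0.28 (SE 0.36, adjusted p = 0.657). Without SM 128, 6 of the genes on the list passed both thresholds, all higher in STH, beside 6.39% of all genes higher in STH and 1.34% higher in SM. They were *PIK3CA*, *JAK2*, *SOS1*, *BRAF*, *RPS6KB1* and *RICTOR*, of which *RICTOR*, a subunit of an mTOR complex, was named after its values were seen.

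**Figure D5:**
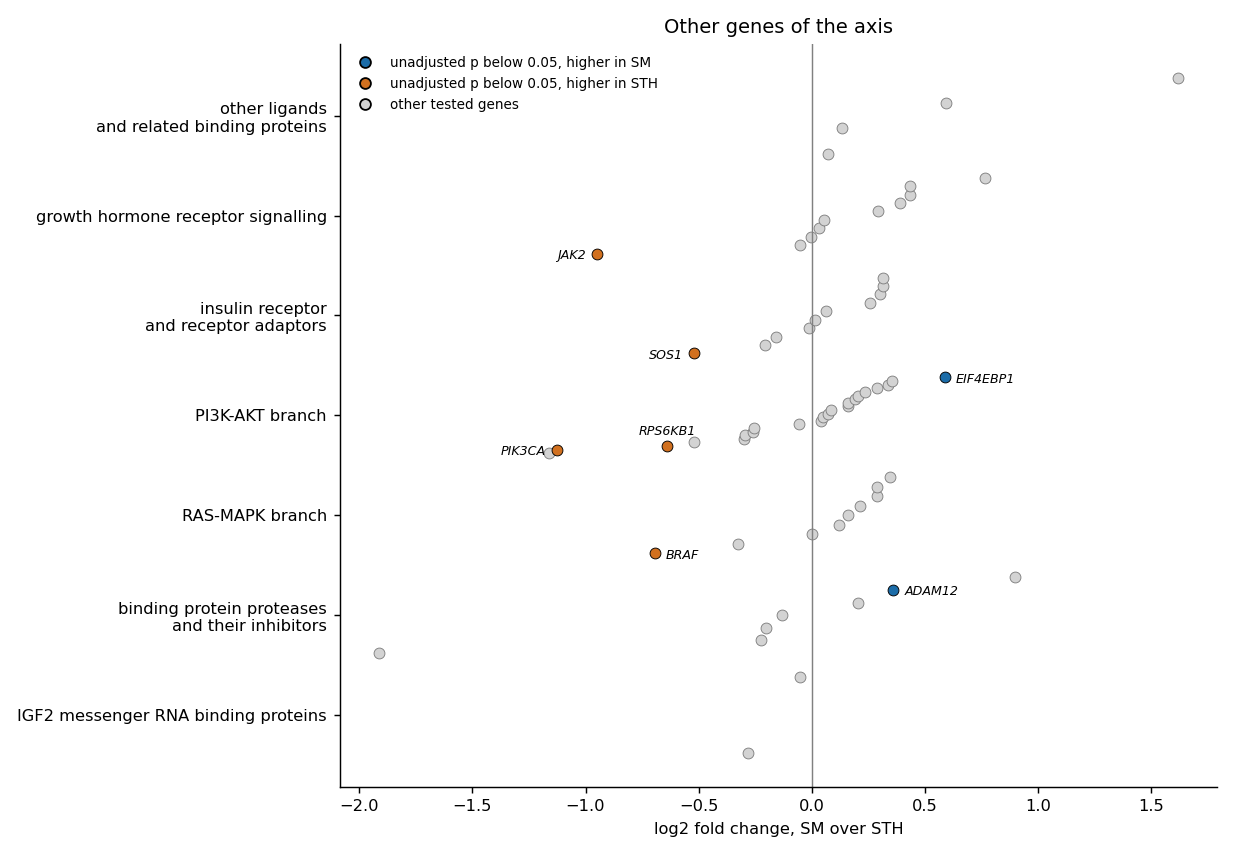
Log2 fold change (SM over STH) of the 64 tested genes of the pathway list, 1 point per gene, grouped by role on the vertical axis. Coloured and named points had an unadjusted p under 0.05 in edgeR's quasi-likelihood test, 2 of them higher in SM and 5 higher in STH, and none of the 64 passed after adjustment.

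Skin is a mixture of cell types, and in RNA of whole skin fewer cells of a type and less RNA per cell cannot be told apart. Beside the higher *IGFBP4* values of SM sheep, 5 of 6 endothelial markers had a log2 fold change above 0, with a summed level of 541 to 679 CPM in SM and 354 to 572 CPM in STH. The other, *EMCN*, was lower in all SM sheep (log2 fold change -0.61, SE 0.20, adjusted p = 0.247 in edgeR). At an unadjusted p under 0.05, 2 endothelial markers were higher in SM and 1 in STH, beside 7.21% and 10.8% of all genes tested. All 6 measured sebaceous gland markers had a log2 fold change above 0, with sums of 458 to 874 CPM in SM and 258 to 351 CPM in STH. Beside the higher *GHR* values of STH sheep, all 7 smooth muscle markers had a log2 fold change below 0, with sums of 1206 to 1431 CPM in SM and 1863 to 2356 CPM in STH. Of these markers, 5 were under an unadjusted p of 0.05 in edgeR, beside 10.8% of all genes higher in STH. The others were *TAGLN* (log2 fold change -0.0089, SE 0.17), for which the breeds overlapped, and *SMTN* (-0.12, SE 0.13). The sum of the adipocyte markers was 79.5 to 112 CPM in SM and 167 to 218 CPM in STH, although 3 of the 6 tested had a log2 fold change above 0. This gap rested on *FABP4*, without which the sum was 49.2 to 58.4 CPM in SM and 33.4 to 49.1 CPM in STH. The fat cell hormones *LEP* and *ADIPOQ* were at 0 to 0.397 CPM and 0.198 to 8.70 CPM. All 9 keratinocyte markers had a log2 fold change below 0, 3 of them at an unadjusted p under 0.05 in edgeR, beside 10.8% of all genes. The sums of the keratinocyte, fibroblast, dermal papilla and endothelial markers overlapped between the breeds, the first 3 at 17266 to 21116, 14879 to 21180 and 489 to 688 CPM in SM and at 20276 to 30320, 17217 to 21187 and 418 to 608 CPM in STH. The part of these cell types in the *IGFBP4* and *GHR* values was not tested.

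The genes most like a member over the 6 sheep were found by the mean absolute difference of their centred log2 CPM from that of the member. Tested genes whose symbol begins with LOC were left out of this search. For *IGFBP4* the nearest were *TGFBR2*, a receptor of TGF-beta (0.0253), *VWF*, the von Willebrand factor of endothelium (0.0548), and *TRIB2* (0.0566), where the median over all genes searched was 0.404. *TGFBR2* had 43.1, 51.5 and 54.0 CPM in the SM sheep and 36.7, 29.7 and 26.9 CPM in the STH sheep, the same order of sheep as *IGFBP4*. It was picked for its likeness over these same sheep, so the shared order is no separate result. For *IGF2* the nearest were *CPNE2* (0.0337), *LIN37* (0.0353) and *ZDHHC8* (0.0376), against a median of 0.273. For *IGF1* the values were larger, with *EMB* at 0.111 and *SPX* at 0.133, against a median of 0.561. *EMB*, the cell adhesion protein embigin, had 15.2, 7.17 and 6.90 CPM in the SM sheep and 12.5, 15.04 and 9.70 CPM in the STH sheep.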

How the data were processed

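The authors mapped the paired-end reads of each skin library to Oar_v4.0 with CLC Genomics Workbench and deposited 1 table per sheep, without pooling. The total count of each gene, deposited by the authors as a whole number without normalization, was used for all tests, and the classes of reads counted are not given in the sources used here. The deposited RPKM, per exon length and library size, was used for levels between genes and as an alternative. The deposited TPM and a deposited score named CPM were not used. Breeds follow the labels.

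A gene was tested if 3 or more sheep had 10 or more counts (15320 genes). Counts were normalized by TMM and tested with edgeR 4.0.16 (quasi-likelihood, breed as the only term) in R 4.3.3, with Benjamini-Hochberg adjustment over all genes. The study names edgeR but not its test. DESeq2 1.42.0, limma 3.58.1, the exact and likelihood ratio tests of edgeR, other normalizations, filters and units, and leaving out each sheep were alternatives. Every member was named, as were the 2 genes of each pathway group with the smallest p, 7 fixed genes, and the 3 genes most like *IGF1*, *IGF2* and *IGFBP4*. The members and lists were chosen with earlier results of these data known. Chromosomes were named through gene IDs in RefSeq's table for ARS-UI_Ramb_v3.0, and positions are those of the files. *GH1*, *PRLR*, *INS* and *CTSD*, and the markers *KRT14*, *LOR*, *MYH1*, *MYH2*, *TNNT3*, *MOGAT3* and *APOA1*, were not analysed here. A few genes of the lists or the likeness search are not reported here.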

Additional observations from a re-analysis of the deposited data

How the results depend on the processing

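Over 18 alternatives, 166 of 180 log2 fold changes of the 10 genes kept their direction and their side of the thresholds. No value of *GHR*, *IGF2R*, *IGF2*, *IGF1R*, *IGFBP2* or *IGFBP4* changed sign. Across all genes, 439 passed in DESeq2, 352 in the likelihood ratio test, 329 in the exact test, 2 with the newer quasi-likelihood estimate, 2 without a filter, 11 on log2(RPKM + 0.1) and 8 with the length trend removed, and 0 to 1175 when each sheep was left out. Of the members, 1 passed in DESeq2, the likelihood ratio test and the exact test, and 0 to 2 with a sheep left out. The members under an unadjusted p of 0.05 then numbered 1 to 3 higher in SM and 0 to 2 higher in STH, with 0 without STH XW5. Of the other axis genes, 0 to 6 passed with a sheep left out, and 0 in every other alternative. Those under an unadjusted p of 0.05 and higher in SM numbered 6 with upper quartile normalization, 5 on log2(RPKM + 0.1), 5 on log2(RPKM + 1), 10 with the length trend removed and 2 to 9 with a sheep left out, and those higher in STH 8 in the likelihood ratio test, the exact test, the newer estimate and without a filter, 9 in limma-voom and 0 to 10 with a sheep left out (0 without STH XW5, 1 without SM 30034 and 3 without SM 30126). Over all genes these numbers moved as well, from 1104 higher in SM and 1658 higher in STH in the main test. Higher in SM were 1590 with the length trend removed and 473 to 1932 with a sheep left out. Higher in STH were 1839 in the likelihood ratio test, 2053 in limma-voom and 635 to 2677 with a sheep left out. The lowest of these were 635 without STH XW5, 921 without SM 30034 and 988 without SM 30126. The cause of these shifts was not tested.

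Among the genes named by rule, the log2 fold changes that changed sign with the length trend removed were -0.13 for *IGFBP3*, 0.14 for *IGFBP5*, -0.0011 for *IGFBP6*, 0.22 for *STAT5B*, 0.12 for *IRS1* and 0.0933 for *PAPPA*. For the genes named by rule that changed sign with a sheep left out, the range was -0.92 to 0.0777 for *IGF1*, -0.0737 to 0.18 for *IGFBP3*, -0.14 to 0.0628 for *IGFBP5*, -0.26 to 0.76 for *IGFALS*, -0.15 to 0.0355 for *STAT5B*, -0.0437 to 0.12 for *INSR*, -0.46 to 0.12 for *PAPPA* and -0.22 to 0.14 for *IGF2BP2*. No paired analysis was possible because the labels name individual animals, and the replicate numbers, given in accession order, tie no SM to any STH animal. With 3 sheep a breed the design cannot give an exact permutation p below 0.1, and for *IGF1* the interval of the log2 fold change (-1.16 to 0.72) includes the 1.5-fold threshold in either direction.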
